A study of Homo sapiens with 9 samples.

Results

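The RNA levels of 9 genes for double-stranded RNA-binding proteins and microRNA processing enzymes were followed in HEK293 cells that overexpressed the RNA editing enzyme ADARB1. The genes were ILF2, STAU1, STAU2, PRKRA, TARBP2, DICER1, DROSHA, DGCR8 and STRBP, taken as a list of symbols, because these proteins and ADARB1 bind similar RNA substrates. They are 9 of the 54562 genes in the table of values. In all 9 the mean reached 1 FPKM (fragments divided by the length of the gene and by the mapped fragments of its library) over the libraries, the minimum for testing, as it did in 13801 genes.

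HEK293 cells, a line from human embryonic kidney, take up plasmid DNA readily. Cells received the empty vector (EV), a plasmid for the ADARB1 isoform that skips an Alu exon (Short) or a plasmid for the isoform that includes it (Long), by transient transfection with the same lipid reagent in all groups, and RNA was collected 48 hours later. Each group had 3 libraries of polyadenylated RNA, and transfections were repeated in different passages of the cells. The replicate number was taken to mark the passage, which the labels do not state, because libraries with the same number deviated together. Libraries prepared or sequenced together would do so too, and the data cannot tell these apart. Summed over all genes, a library held between 517170 and 589535 FPKM. The number of fragments is unknown, but the steps in the lowest values put each library at 0.993 to 1.21 times the depth of EV passage 1. This estimate is rough, because only 22.1% to 45.9% of the 571 to 639 genes used, all under 0.05 FPKM, lay at the step. Expression came from a plasmid in a population of 1 cell line, so that a change in the share of transfected cells and a change per cell cannot be told apart.

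Long double-stranded RNA and the hairpins of primary microRNAs are recognised by proteins that carry double-stranded RNA-binding domains. In the nucleus, the Microprocessor, formed by the ribonuclease DROSHA and its partner DGCR8, cuts primary microRNA transcripts into hairpin precursors. In the cytoplasm, DICER1 cuts the precursors into mature duplexes, aided by the double-stranded RNA-binding partners TARBP2 and PRKRA. ADARB1 deaminates adenosines in the same kind of structure, and edited hairpins can be poorer or better substrates for these enzymes. STAU1 and STAU2 bind double-stranded regions of messenger RNAs in transport, translation and decay, and ILF2 and STRBP carry a DZF domain, through which such proteins form pairs.

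The plasmid gene itself was checked first. ADARB1 was at 7.66, 8.0 and 8.61 FPKM with EV passages 1 to 3, with Short at 1889, 4145 and 2735 FPKM and with Long at 1695, 3449 and 2080 FPKM. Every Short and Long library was far above every EV library, as the labels state. The difference from EV on the log2(FPKM + 1) scale was 8.26 ± 0.16 (SE) in Short (limma, adjusted p = 1.6e-09) and 7.99 ± 0.16 (SE) in Long (limma, adjusted p = 2.2e-09). All fold changes below are on this scale and give too small a change for genes of low FPKM.

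Of 7 markers chosen for HEK293, 6 were found in the table and 5 reached a mean of 1 FPKM. Their summed level was 444.1 to 540.9 FPKM over the 9 libraries, and the keratin gene KRT8 was the most abundant at 191 FPKM. PAX8, a renal transcription factor, was near 0. The markers of blood, of liver, of endothelium and of muscle each summed to less than 1 FPKM in every library, while the collagen gene COL1A1 had a mean of 11.2 FPKM and the synaptic gene SYP 6.49 FPKM. COL1A2 and DCN, the other fibroblast markers, were at or near 0.

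The 9 genes spanned about an order of magnitude in FPKM, a scale that allows for gene length. ILF2 had the highest mean over the 9 libraries, 202 FPKM, which was above 97.5% of the genes tested. STAU1 followed with 64.0 FPKM and DROSHA with 48.1 FPKM, and the ranges of these genes over the libraries did not overlap. Below them came DGCR8 with 28.6 FPKM, STAU2 with 24.7 FPKM, TARBP2 with 23.6 FPKM, STRBP with 20.4 FPKM, DICER1 with 20.1 FPKM and PRKRA with 19.05 FPKM. In this lower group each gene overlapped its neighbours in the order. Within the Microprocessor, DROSHA was above DGCR8 in every library, and in the DICER1 complex the enzyme and its partners lay within the same range of levels. The plot of FPKM in each library, joined by passage, gives all these values.

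**Figure D1:**
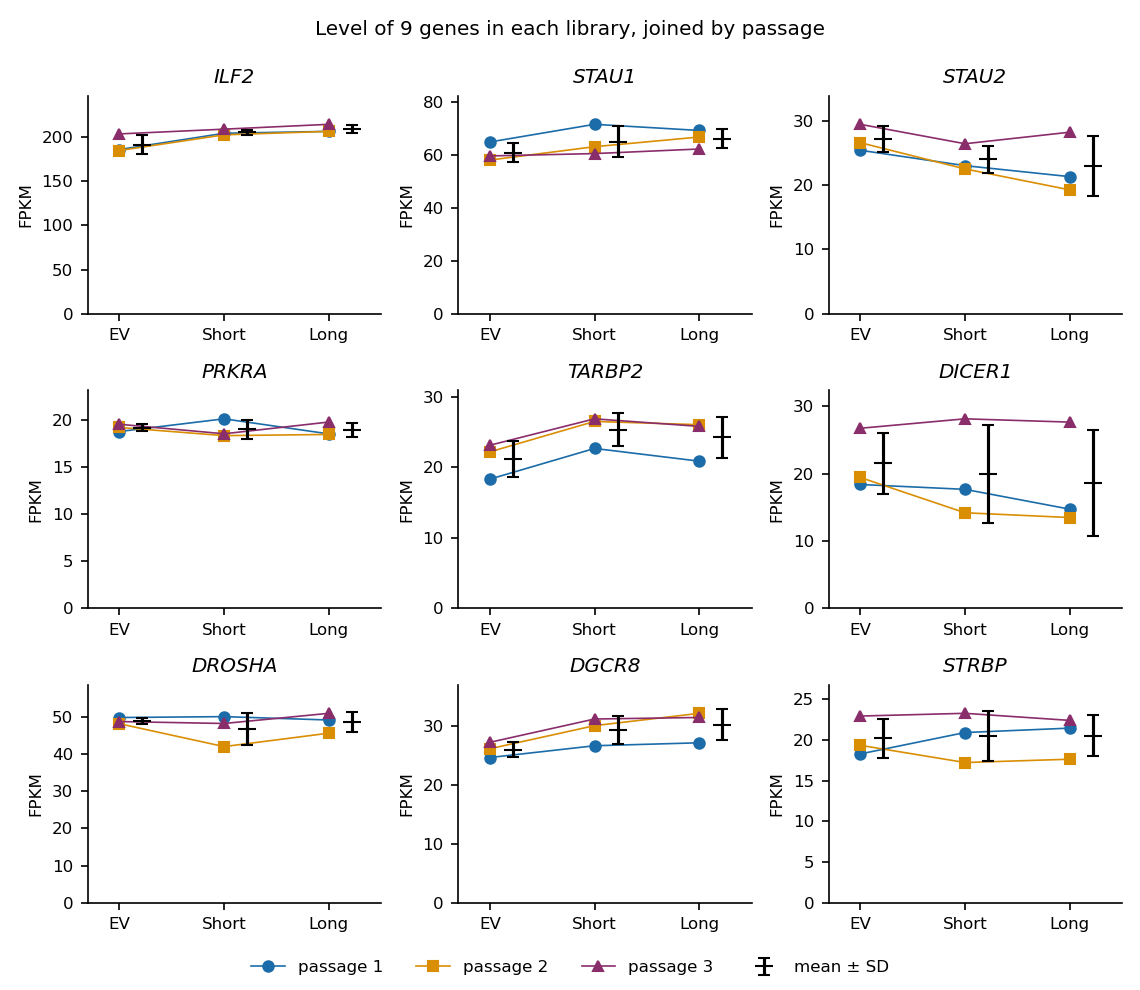
FPKM (vertical axes, from 0) of the 9 genes in EV, Short and Long cells, with a point for each library, lines joining libraries of the same passage and bars for the group mean ± SD (n = 3). Most lines are nearly flat, DGCR8 and TARBP2 have higher FPKM in Short and Long than in EV in each passage (for DGCR8 in Short not after rescaling to an equal sum), and the passage 3 line of DICER1 lies above the others in every group.

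TARBP2, the double-stranded RNA-binding partner of DICER1, had higher values with both isoforms than with EV in all 3 passages and STAU2 had lower values, as deposited and with both other scalings. DGCR8, ILF2 and STAU1 also had higher FPKM in all 3 passages with both isoforms, but this depended on the scaling. After rescaling to an equal FPKM sum it held for DGCR8 and ILF2 in Long alone and for STAU1 in neither. With median ratio scaling it held for DGCR8 in both and for ILF2 and STAU1 in neither. Among all genes tested, 45.3% had a single direction in all 3 passages in Short and 45.5% in Long. None of the 9 genes passed an adjusted p of 0.05 in Short or in Long against EV. The background was 0.0362% of all genes called in Short against EV and 8.32% in Long against EV (5 and 1148 genes of 13801). At an unadjusted p under 0.05, 4 of the 9 genes passed in Short and 6 of 9 in Long, where 22% and 24.4% of all genes did. Both counts are from the deposited scale and are not given for the other scalings or the GC correction. With that correction the lowest adjusted p of the 9 genes was 0.188, that of DGCR8 in Long (limma). The smallest p that an exact permutation test allows for 3 libraries against 3 is 0.1, and 0.25 for 3 pairs.

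Gene positions are those of GENCODE on GRCh37. The Microprocessor genes are given first. DROSHA (ENSG00000113360, chr5:31400601-31532303, minus strand), the ribonuclease, was at 49.8, 48.1 and 48.7 FPKM with EV passages 1 to 3, with Short at 50.05, 41.99 and 48.2 FPKM and with Long at 49.1, 45.6 and 50.9 FPKM. Its groups overlapped, with the lowest value in Short passage 2. The difference from EV was -0.07 ± 0.06 (SE) in Short (limma, adjusted p = 0.522) and -0.01 ± 0.06 (SE) in Long (limma, adjusted p = 0.932), with 95% intervals of -0.20 to 0.06 and -0.14 to 0.12. After rescaling to an equal FPKM sum it was -0.15 in Short (limma, adjusted p = 0.181). In Long it was -0.09 on that scale (limma, adjusted p = 0.438). Without passage 2 the difference in Short was -0.004 (limma, adjusted p = 0.989).

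DGCR8 (ENSG00000128191, chr22:20067744-20099400, plus strand), which binds the primary transcript and holds DROSHA to it, was at 24.7, 26.2 and 27.3 FPKM with EV, with Short at 26.7, 30.1 and 31.3 FPKM and with Long at 27.2, 32.2 and 31.5 FPKM. Each Short and Long library was above the EV library of its passage, but passage 1 of both isoforms lay within the range of EV. The mean was 12.7% above EV in Short and 16.3% above EV in Long. On the log2 scale the difference was 0.16 ± 0.06 (SE) in Short (limma, adjusted p = 0.147) and 0.21 ± 0.06 (SE) in Long (limma, adjusted p = 0.0522). The latter is the lowest adjusted p of the 9 genes in any comparison of groups, and over 12 alternatives it ranged from 0.0441 to 0.637, below 0.05 only with a minimum mean of 5 FPKM. After rescaling to an equal FPKM sum the difference of DGCR8 was 0.08 in Short (limma, adjusted p = 0.446). In Long it was 0.14 on that scale (limma, adjusted p = 0.195).

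The transcript of DGCR8 carries microRNA hairpins of its own, which the Microprocessor is known to cut, so that the level of this messenger RNA is part of a feedback loop. The hairpin of miR-3618 lies in an untranslated part of a DGCR8 exon and that of miR-1306 in its coding sequence. The mature sequences below, from RefSeq on GRCh38.p14 (plus strand of chr22, 5′ to 3′), show what these hairpins yield, with the seed (bases 2 to 8), which pairs with target messenger RNAs, in capitals. They lie at chr22:20085797-20085818, chr22:20086072-20086093 and chr22:20086112-20086129 in the order given.
hsa-miR-3618: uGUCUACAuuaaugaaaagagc
hsa-miR-1306-5p: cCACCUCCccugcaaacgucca
hsa-miR-1306-3p: aCGUUGGCucugguggug
The 3 seeds differ from each other. Mature microRNAs are too short to enter libraries of this kind, so their levels are not part of these data.

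In the DICER1 complex the mean of the enzyme lay below EV and that of TARBP2 above it, neither past the threshold. DICER1 (ENSG00000100697, chr14:95552565-95624347, minus strand) was at 18.4, 19.5 and 26.8 FPKM with EV passages 1 to 3, with Short at 17.7, 14.2 and 28.2 FPKM and with Long at 14.7, 13.5 and 27.7 FPKM. In passages 1 and 2 it was lower with both isoforms than with EV, whereas in passage 3 it was slightly higher, so the groups overlapped widely. The difference was -0.14 ± 0.10 (SE) in Short (limma, adjusted p = 0.447) and -0.25 ± 0.10 (SE) in Long (limma, adjusted p = 0.159). In Short it changed sign to 0.01 without passage 2 (limma, adjusted p = 0.984) and was -0.24 without passage 3 (limma, adjusted p = 0.273). In Long it was -0.13 without passage 2 (limma, adjusted p = 0.680) and -0.40 without passage 3 (limma, adjusted p = 0.0564). The SE was the largest of the 9 genes, and the 95% interval in Long ran from -0.47 to -0.03. This interval is for the gene alone, not adjusted for the number of genes tested, and so excludes 0 although the adjusted p did not pass.

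TARBP2 (ENSG00000139546, chr12:53894705-53900215, plus strand), a cofactor that steadies DICER1 on its precursors, was at 18.3, 22.2 and 23.1 FPKM with EV, with Short at 22.7, 26.5 and 26.9 FPKM and with Long at 20.9, 26.0 and 25.8 FPKM. Passage 1 was the lowest in each group, and within each passage both isoforms were above EV. The mean was 19.5% above EV in Short and 14.3% above EV in Long. The difference on the log2 scale was 0.25 ± 0.06 (SE) in Short (limma, adjusted p = 0.110) and 0.18 ± 0.06 (SE) in Long (limma, adjusted p = 0.0792). Over the alternatives its adjusted p was 0.0801 to 0.727 in Short and 0.0701 to 0.692 in Long. After rescaling to an equal FPKM sum the difference was 0.17 in Short (limma, adjusted p = 0.141). In Long it was 0.11 on that scale (limma, adjusted p = 0.255). With a correction for GC content it was 0.12 in Short and 0.09 in Long.

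PRKRA (ENSG00000180228, chr2:179296019-179316239, minus strand), is the other DICER1 partner and an activator of the kinase PKR. It was at 18.8, 19.2 and 19.6 FPKM with EV, with Short at 20.1, 18.4 and 18.6 FPKM and with Long at 18.5, 18.5 and 19.8 FPKM. No group stood apart. The difference was -0.01 ± 0.07 (SE) in Short (limma, adjusted p = 0.923) and -0.02 ± 0.07 (SE) in Long (limma, adjusted p = 0.897), with 95% intervals of -0.16 to 0.13 in both, which leaves changes of that size undetectable here. After rescaling to an equal FPKM sum the difference was -0.096 in Short (limma, adjusted p = 0.395). In Long it was -0.093 on that scale (limma, adjusted p = 0.434).

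The Staufen paralogs lay on opposite sides of EV, neither past the threshold. STAU1 (ENSG00000124214, chr20:47729876-47804904, minus strand) was at 64.9, 58.05 and 59.6 FPKM with EV passages 1 to 3, with Short at 71.5, 63.1 and 60.5 FPKM and with Long at 69.2, 66.7 and 62.2 FPKM. Its FPKM was above EV in each passage with both isoforms, and the groups overlapped. The difference was 0.09 ± 0.05 (SE) in Short (limma, adjusted p = 0.321) and 0.12 ± 0.05 (SE) in Long (limma, adjusted p = 0.201). After rescaling to an equal FPKM sum it was 0.01 in Short (limma, adjusted p = 0.935) and 0.04 in Long (limma, adjusted p = 0.684).

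STAU2 (ENSG00000040341, chr8:74332604-74659943, minus strand) was at 25.4, 26.6 and 29.5 FPKM with EV, with Short at 23.0, 22.5 and 26.4 FPKM and with Long at 21.3, 19.3 and 28.2 FPKM. It was below EV in each passage with both isoforms, and passage 3 of both isoforms lay within the range of EV. The mean was 11.6% below EV in Short and 15.5% below EV in Long. The log2 difference was -0.17 ± 0.08 (SE) in Short (limma, adjusted p = 0.218) and -0.25 ± 0.08 (SE) in Long (limma, adjusted p = 0.0737). In Long the adjusted p ranged from 0.0251 to 0.965 over 12 alternatives (limma) and was under 0.05 in 3 of them, which were rescaling to an equal FPKM sum, median ratio scaling and leaving out passage 3. The difference in Long was -0.25 both without the replicate block (limma, adjusted p = 0.652) and without passage 1 (limma, adjusted p = 0.201). It was -0.01 with a correction for GC content (limma, adjusted p = 0.965) and -0.15 without passage 2 (limma, adjusted p = 0.547).

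The DZF domain genes differed little. ILF2 (ENSG00000143621, chr1:153634264-153643504, minus strand), a nuclear protein, was at 186, 185 and 204 FPKM with EV, with Short at 204, 203 and 209 FPKM and with Long at 206, 206 and 214 FPKM. On the deposited scale it was the only one of the 9 genes whose Long libraries all lay above all EV libraries, a separation that 13.6% of all genes had in either direction, and none of the 9 had it in Short against EV, where 13% of all genes did. With both other scalings ILF2 no longer had it, and after rescaling to an equal sum 1 of the 9, DROSHA, had it in Short, where 9.29% of all genes did on that scale. The difference of ILF2 was 0.10 ± 0.04 (SE) in Short (limma, adjusted p = 0.199) and 0.13 ± 0.04 (SE) in Long (limma, adjusted p = 0.0944). After rescaling to an equal FPKM sum it was 0.02 in Short (limma, adjusted p = 0.834) and 0.05 in Long (limma, adjusted p = 0.495). The exact permutation test of Long against EV gave p = 0.1, the smallest it can give.

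STRBP (ENSG00000165209, chr9:125871779-126030865, minus strand), which is known from the RNAs of male germ cells and binds double-stranded RNA, was at 18.3, 19.3 and 22.9 FPKM with EV, with Short at 20.9, 17.2 and 23.2 FPKM and with Long at 21.4, 17.6 and 22.4 FPKM. It was above EV in passage 1 and below it in passage 2 with both isoforms. The difference was 0.02 ± 0.08 (SE) both in Short (limma, adjusted p = 0.928) and in Long (limma, adjusted p = 0.908). With the other scalings it changed sign, to between -0.07 and -0.02.

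Direction was the same in all 3 passages for 5 of the 9 genes in Short against EV (ILF2, STAU1, TARBP2 and DGCR8 higher, STAU2 lower) and for the same 5 in Long against EV. After rescaling to an equal FPKM sum it was so for 4 of 9 in Short (TARBP2 higher, STAU2, PRKRA and DROSHA lower) and 7 of 9 in Long (TARBP2, DGCR8 and ILF2 higher, STAU2, PRKRA, DICER1 and DROSHA lower), where 40.7% and 40% of all genes had one direction. With median ratio scaling it was so for 4 of 9 in Short (TARBP2 and DGCR8 higher, STAU2 and DROSHA lower). In Long it was 6 of 9 on that scale (TARBP2 and DGCR8 higher, STAU2, PRKRA, DICER1 and DROSHA lower). The shares of all genes were 40.9% and 41.8%. Short and Long share the EV libraries, so these counts are not independent. The median difference of the 9 genes was 0.02 in both comparisons, against 0.04 over all genes tested. Of the genes called in Long against EV, 275 were higher (1.99% of those tested) and 873 lower (6.33%), and the split was 57 to 1217 after rescaling to an equal sum and 135 to 1105 with median ratio scaling. The 1148 calls fell to 2 without the replicate block, 1 with the GC correction, 2 without passage 1 and 95 without passage 2.

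**Figure D2:**
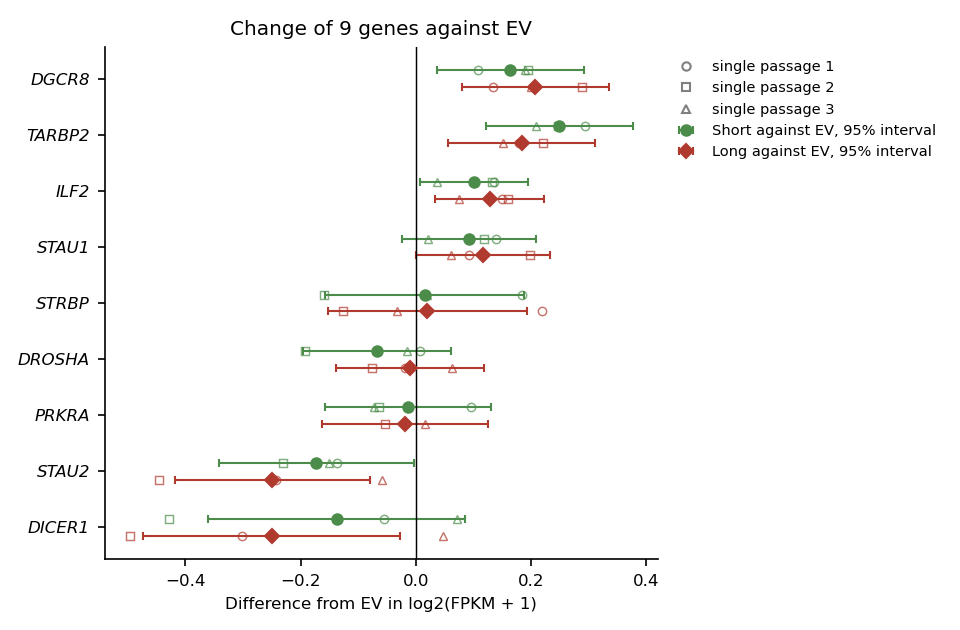
Difference from EV in log2(FPKM + 1) (horizontal axis) for the 9 genes (vertical axis), with filled points and bars for the estimate and its 95% interval (not adjusted for the number of genes tested) and open points for each passage. On the deposited scale DGCR8 and TARBP2 lie to the right of 0 and STAU2 to the left in every passage (for DGCR8 in Short not after rescaling to an equal sum), and the passage values of DICER1 fall on both sides of 0.

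The Long isoform was compared directly with the Short isoform. No gene of the 9 passed the threshold (limma, lowest adjusted p = 0.899, TARBP2), and none had an unadjusted p under 0.05. Of all genes tested, 1 (0.00725%) was called. The widest difference was that of DICER1, -0.11 ± 0.10 (SE), with a 95% interval of -0.34 to 0.11, and those of the other 8 genes lay between -0.08 and 0.06. For DGCR8 the interval was -0.08 to 0.17, for TARBP2 -0.19 to 0.06 and for STAU2 -0.25 to 0.09, so that differences between the isoforms of up to about the size of the differences from EV are within them.

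More of the 9 genes differed among passages than between plasmids. By limma's moderated F-test of passage, 5 of the 9 genes differed among passages (DICER1, TARBP2, STAU2, STRBP and DGCR8), and 36.4% of all genes tested did. DICER1 had the widest range. Its mean over the groups was 16.9 ± 1.9 FPKM (SD, n = 3) in passage 1, 15.7 ± 3.3 FPKM in passage 2 and 27.5 ± 0.7 FPKM in passage 3. All 3 libraries of passage 3 were above all 6 others, a range of 0.79 on the log2 scale (limma, adjusted p = 0.00077). Without passage 3 the range was 0.11 (limma, adjusted p = 0.608).

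STAU2 was at 23.3 ± 2.1, 22.8 ± 3.7 and 28.0 ± 1.5 FPKM (SD, n = 3) in passages 1 to 3 and STRBP at 20.2 ± 1.7, 18.1 ± 1.1 and 22.9 ± 0.4 FPKM, so both shared with DICER1 the highest mean in passage 3 and the lowest in passage 2. Their ranges were 0.30 (limma, adjusted p = 0.0209) and 0.33 (limma, adjusted p = 0.0226). Without passage 3 they were 0.04 for STAU2 (limma, adjusted p = 0.868) and 0.15 for STRBP (limma, adjusted p = 0.497), and without passage 2 that of STRBP was 0.17 (limma, adjusted p = 0.106). TARBP2 and DGCR8 were instead lowest in passage 1. TARBP2 was at 20.6 ± 2.2, 24.9 ± 2.4 and 25.2 ± 1.9 FPKM, a range of 0.28 (limma, adjusted p = 0.00596), and DGCR8 at 26.2 ± 1.3, 29.5 ± 3.1 and 30.0 ± 2.4 FPKM, a range of 0.19 (limma, adjusted p = 0.0475). Without passage 1 these ranges were 0.02 (limma, adjusted p = 0.778) for TARBP2 and 0.03 (limma, adjusted p = 0.725) for DGCR8. STAU1, DROSHA, ILF2 and PRKRA did not pass, with adjusted p-values of 0.0563, 0.147, 0.257 and 0.826 (limma). ILF2 did pass after rescaling to an equal FPKM sum, with a range of 0.16 (limma, adjusted p = 0.0186), and STAU1 with a minimum mean of 5 FPKM (limma, adjusted p = 0.0480). Leaving out passage 3 left 28 genes called among passages in place of 5028, and none of the 9.

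The base composition of transcripts moved with these differences. For each library, Spearman's rho over genes between the GC content of the longest annotated transcript and the deviation of the gene was -0.01, -0.29 and -0.66 in EV passages 1 to 3, 0.29, 0.68 and -0.39 in Short and 0.23, 0.56 and -0.38 in Long. It was thus lower in EV than in the isoforms in each passage, and negative in all libraries of passage 3. TARBP2 had the highest GC content of the 9 genes at 61.0%, followed by DGCR8 at 53.6%, STAU1 at 46.7%, DROSHA at 45.9% and ILF2 at 45.3%. STRBP had 40.8%, PRKRA 39.97%, DICER1 39.5% and STAU2 36.3%.

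Spearman's rho between GC content and the difference from EV was 0.87 over the 9 genes in Short and 0.88 in Long, and 0.62 and 0.52 over the 13398 genes with a GC value. The genes share their libraries, so these values are descriptions. With each library corrected for GC content by a loess curve, the difference of STAU2 was -0.02 in Short and -0.01 in Long, that of TARBP2 0.12 and 0.09, that of DGCR8 0.07 and 0.12, and that of DICER1 -0.06 and -0.15, with a lowest adjusted p of 0.188, that of DGCR8 in Long (limma). All 9 genes were nearer to 0 than their uncorrected values in Long except PRKRA, DROSHA and STRBP. Among passages, DICER1 kept an adjusted p of 0.0034 and a range of 0.55 after the correction, and STAU2 (0.363) and STRBP (0.179) did not pass (limma). The ranges of TARBP2 and DGCR8 rose with it to 0.42 (limma, adjusted p = 0.0028) and 0.32 (limma, adjusted p = 0.0048), and ILF2, which had not passed before, did so with a range of 0.14 (limma, adjusted p = 0.0308). The part of GC content in the differences from EV was not tested further.

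**Figure D3:**
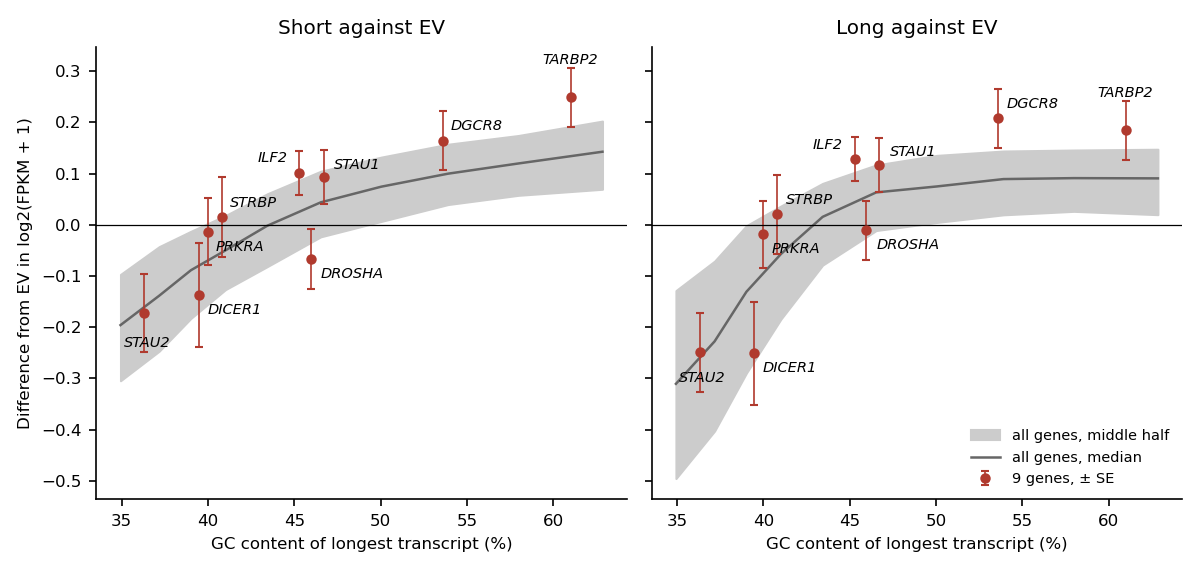
Difference from EV in log2(FPKM + 1) (vertical axis) against the GC content of the longest transcript (horizontal axis, %) for Short (left) and Long (right), with points and bars for the 9 genes ± SE, and the line and band for the median and the quartiles of all genes in classes of GC content. STAU2 and DICER1, at 36.3% and 39.5% GC, lie lowest and TARBP2 and DGCR8, at 61.0% and 53.6% GC, highest, and the line rises with GC content but is flat in Long from about 54% GC.

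Several pairs of the 9 genes varied together. Over the 9 libraries Pearson's r of log2(FPKM + 1) was 0.92 between DGCR8 and TARBP2 and 0.75 between ILF2 and DGCR8. It was 0.90 between STAU2 and DICER1 and 0.79 between DICER1 and STRBP, and -0.71 between STAU1 and STAU2. Among the 10071 genes whose mean reached 5 FPKM, the gene most like DICER1 was NAA25 (r = 0.998), followed by SETD2 (r = 0.994). The nearest to STAU2 was BIRC2 (r = 0.994), to TARBP2 SURF6 (r = 0.988), to DROSHA RNF141 (r = 0.984), to ILF2 TRUB2 (r = 0.982) and to STAU1 ARCN1 (r = 0.982). STRBP was most like ARFGEF2 (r = 0.971), DGCR8 most like NECAP2 (r = 0.967) and PRKRA most like CRY1 (r = 0.926). All genes were read in the same 9 libraries, which differ in passage, depth and base composition. The nearest of so many genes will always have a high r.

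The other genes of these pathways were taken from 6 lists with 77 distinct genes, of which 75 were in the table and 62 were tested. In Short against EV and in Long against Short none of the 62 was called, beside 0.0362% and 0.00725% of all genes. In Long against EV 7 of 62 (11.3%) were called, 2 higher and 5 lower, beside 8.32% of all genes. Their median difference was 0.07 in Long and 0.03 in Short, against 0.04 in both over all genes tested. Among passages 29 of the 62 (46.8%) were called, beside 36.4% of all genes. No list gene was called without the replicate block, with the GC correction, without a filter on low values, without passage 1 and without passage 2 (limma). The 2 higher calls depended on the scaling, with 0 higher and 5 lower after rescaling to an equal FPKM sum and 1 higher and 5 lower with median ratio scaling. Without passage 3 there were 6 calls, 5 of them among the 7.

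Among 9 tested genes with double-stranded RNA-binding motifs, none was called against EV, beside 0.0362% of all genes in Short and 8.32% in Long. ADAR, the ubiquitous editing enzyme, was at 61.0 ± 2.0 FPKM (SD, n = 3) with EV, 64.7 ± 2.8 FPKM with Short and 64.8 ± 4.2 FPKM with Long. EIF2AK2, which encodes the kinase PKR, was at 21.4 ± 1.9, 20.6 ± 2.8 and 20.7 ± 1.7 FPKM, and DHX9, a helicase, at 119 ± 25, 117 ± 25 and 124 ± 16 FPKM. In this list 3 of the 9 tested genes (33.3%) differed among passages, beside 36.4% of all genes, a share near the background. They were EIF2AK2, DHX9 and CDKN2AIP, all with the highest mean in passage 3. Of the DZF domain list, ZFR was at 64.2 ± 14.9, 75.9 ± 15.7 and 74.4 ± 14.9 FPKM and was not called against EV, and ZFR2 had a mean of 0.48 FPKM and was not tested.

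Of 13 genes for nuclear processing and export of microRNAs, 1 rose in Long (7.69%, beside 8.32% of all genes called), a share near the background. KHSRP, which binds the loops of some precursors, was at 174 ± 12, 194 ± 6.0 and 201 ± 1.4 FPKM (SD, n = 3) in EV, Short and Long, a difference of 0.21 ± 0.05 (SE) in Long (limma, adjusted p = 0.0225), which was 0.13 after rescaling to an equal FPKM sum (limma, adjusted p = 0.1001) and 0.12 with the GC correction (limma, adjusted p = 0.107). With a passage left out it was 0.17 to 0.26, close to the value from all libraries, and was not called (limma, adjusted p from 0.124 to 0.294). DDX5, a helicase of the Microprocessor, was at 237 ± 42, 232 ± 37 and 246 ± 29 FPKM. XPO5, which exports precursors, was at 45.2 ± 2.8, 47.3 ± 0.6 and 47.3 ± 1.3 FPKM, and neither was called against EV. RAN and HNRNPA1, the most abundant genes of this list with means of 611 and 411 FPKM, were not called against EV either.

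Of 22 genes for Argonaute proteins and silencing complexes, 1 rose and 3 fell in Long, beside 1.99% of all genes higher and 6.33% lower. The 2 isoforms of the chaperone HSP90, which helps to load small RNAs into Argonaute, lay on opposite sides of EV. HSP90AA1 was at 388, 392 and 657 FPKM with EV passages 1 to 3, with Short at 375, 349 and 614 FPKM and with Long at 250.3, 231 and 580.3 FPKM. Long was below EV in each passage, and passage 3 was the highest in each group. The difference was -0.52 ± 0.10 (SE) (limma, adjusted p = 0.0125), and it was -0.57 with the GC correction (limma, adjusted p = 0.0540). HSP90AB1 was at 512 ± 46, 569.7 ± 22 and 584 ± 20 FPKM (SD, n = 3), a difference of 0.19 ± 0.04 (SE) in Long (limma, adjusted p = 0.0274), but the call was lost after rescaling to an equal FPKM sum (0.12, limma, adjusted p = 0.0910), with median ratio scaling (0.15, limma, adjusted p = 0.0757) and with the GC correction (0.12, limma, adjusted p = 0.122). FXR1 and FMR1 are related RNA-binding proteins that regulate translation. In Long, FXR1 fell by 0.38 ± 0.09 (SE) (limma, adjusted p = 0.0360) and FMR1 fell by 0.23 ± 0.06 (SE) (limma, adjusted p = 0.0405). With the GC correction FXR1 was at -0.13 (limma, adjusted p = 0.305) and FMR1 at -0.07 (limma, adjusted p = 0.404), and without passage 2 FXR1 was at -0.23 (limma, adjusted p = 0.253). AGO2, the Argonaute that can cut its targets, was at 19.2 ± 0.8, 21.3 ± 2.5 and 21.7 ± 1.9 FPKM and was not called.

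Among 9 tested genes of microRNA tailing and turnover, LIN28B and XRN1 fell in Long, beside 6.33% of all genes. LIN28B, which blocks the maturation of let-7 microRNAs, was at 15.2, 15.1 and 25.5 FPKM with EV, with Short at 13.4, 11.9 and 23.4 FPKM and with Long at 8.85, 7.90 and 23.5 FPKM. The gap to EV was wide in passages 1 and 2 and small in passage 3, and passage 3 was the highest in each group. The difference was -0.56 ± 0.12 (SE) in Long (limma, adjusted p = 0.0223), and its range among passages was 1.03 (limma, adjusted p = 0.000567), which was 0.10 without passage 3 (limma, adjusted p = 0.612). XRN1, a cytoplasmic exonuclease, was at 10.7, 8.88 and 13.0 FPKM with EV, with Short at 6.18, 6.82 and 13.0 FPKM and with Long at 4.46, 6.32 and 11.2 FPKM. Its difference was -0.57 ± 0.14 (SE) in Long (limma, adjusted p = 0.0362). Both genes had their highest value of each group in passage 3, as DICER1 did. With the GC correction LIN28B was at -0.39 (limma, adjusted p = 0.0929) and XRN1 at -0.37 (limma, adjusted p = 0.225). Without passage 1 XRN1 was at -0.31 (limma, adjusted p = 0.156).

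**Figure D4:**
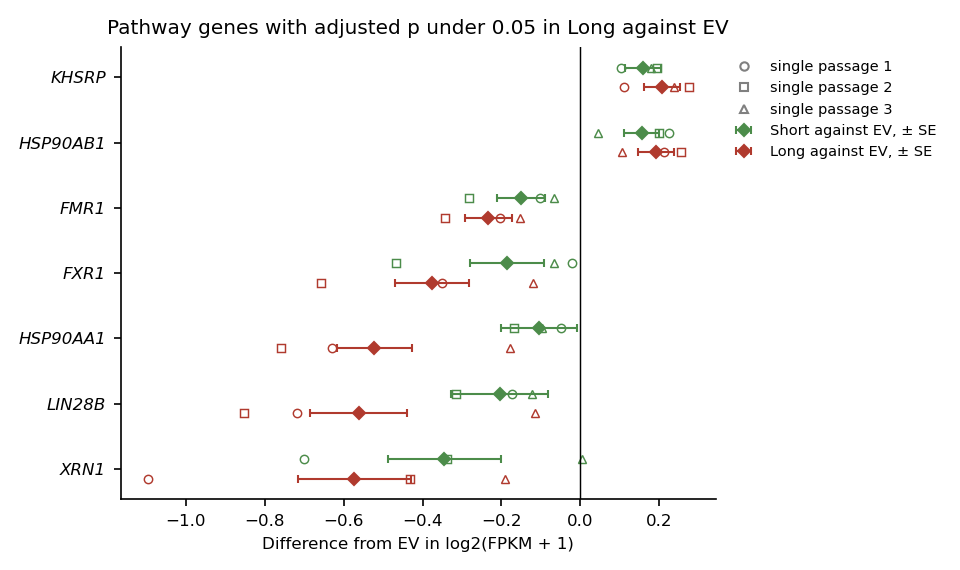
Difference from EV in log2(FPKM + 1) (horizontal axis) for the 7 pathway genes with an adjusted p under 0.05 in Long against EV (vertical axis), with filled points and bars for the estimate ± SE in Short and Long and open points for each passage. In Long all passages lie on one side of 0 for each of the 7 genes, and the passage 3 value is the nearest to 0 for each of them except KHSRP.

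Noncoding transcripts that host microRNAs are substrates of the Microprocessor. Of 19 noncoding host genes listed, 17 were in the table and 8 were tested. None was called in Short or Long against EV, beside 0.0362% and 8.32% of all genes. Among passages 4 of the 8 differed (MIR17HG, DLEU2, H19 and MIR210HG), beside 36.4% of all genes. MIR17HG, the host of the miR-17 to miR-92a cluster, was at 8.48, 10.6 and 13.7 FPKM with EV passages 1 to 3, with Short at 9.31, 9.28 and 12.7 FPKM and with Long at 9.57, 11.3 and 13.4 FPKM. Its passage 3 libraries were the highest in each group, a range of 0.50 (limma, adjusted p = 0.00265), which with the GC correction was 0.22 (limma, adjusted p = 0.221) and without passage 3 was 0.17 (limma, adjusted p = 0.471). MIR210HG was at 18.6 ± 2.6, 11.3 ± 3.3 and 7.99 ± 2.0 FPKM (SD, n = 3) in passages 1 to 3 and so had the opposite order, a range of 1.14 (limma, adjusted p = 0.000797), which was 0.44 without passage 1 (limma, adjusted p = 0.0105) and 0.70 without passage 3 (limma, adjusted p = 0.114).

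The mature sequences that MIR17HG yields are shown because they fall into seed families carried by a single transcript. They are the usual guide strands of the cluster from RefSeq on GRCh38.p14 (plus strand of chr13, 5′ to 3′), with the seed (bases 2 to 8) in capitals.
hsa-miR-17-5p: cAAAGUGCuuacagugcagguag
hsa-miR-20a-5p: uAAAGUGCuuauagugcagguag
hsa-miR-18a-5p: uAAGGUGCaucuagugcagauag
hsa-miR-19a-3p: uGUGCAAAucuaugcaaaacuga
hsa-miR-19b-3p: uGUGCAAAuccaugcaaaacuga
hsa-miR-92a-3p: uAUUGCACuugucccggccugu
Those of miR-17 and miR-20a share the seed AAAGUGC, and those of miR-19a and miR-19b share GUGCAAA.

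The housekeeping genes GAPDH and ACTB were read in the same way. GAPDH, a glycolytic enzyme, was at 2077 ± 196 FPKM (SD, n = 3) with EV, 2264 ± 247 FPKM with Short and 2089 ± 139 FPKM with Long and was not called against EV. ACTB, cytoskeletal actin, was at 1011 ± 91, 1195 ± 122 and 1181 ± 26 FPKM and rose in Long by 0.23 ± 0.05 (SE) (limma, adjusted p = 0.0156), a value that 5 of 12 alternatives called. Without the replicate block, the intensity trend or the filter it was 0.23 and not called (limma, adjusted p from 0.0937 to 0.637). With a passage left out it was 0.20 to 0.28 (limma, adjusted p from 0.0572 to 0.193). With the GC correction it was 0.14 (limma, adjusted p = 0.0789). Several of the 9 genes overlap other annotated genes. DGCR8 overlaps TRMT2A (46.5 FPKM) on the opposite strand, ILF2 overlaps SNAPIN (33.8 FPKM), PRKRA overlaps CHROMR (8.56 FPKM) and DICER1 overlaps DICER1-AS1 (5.75 FPKM). STRBP overlaps MIR600HG (3.29 FPKM) and STAU2 overlaps ENSG00000258677 (2.63 FPKM) on the same strand, where strand cannot separate them. The libraries were strand-specific, but whether strand was used in counting is not given in the sources used here, so reads in the shared stretches cannot be told apart.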

How the data were processed

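RNA-seq of 9 HEK293 libraries (3 per group) was used. The submitters' processing notes name TopHat (version 1.4.1) and Cufflinks, and the reads were mapped to hg19. The deposited values are FPKM, with a row for each Ensembl gene and a column for each library. The Ensembl release and the use of strand are not given in the sources used here.

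The 9 genes and the 6 pathway lists were chosen with earlier results of these data known, so they are not independent of them. The genes named were the 9 genes, a fixed set of relatives, the 3 most abundant genes of each list and up to 3 genes per list and comparison with the largest change among those called. Some genes of the lists are not reported here and are left out of the list counts. Identifiers were matched to GENCODE on GRCh37 (47578 identifiers, 87.2%). GC content was that of the longest transcript.

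On the log2(FPKM + 1) scale, limma (version 3.58.1, R 4.3.3) was run with lmFit and with an intensity trend in eBayes over the 13801 genes whose mean reached 1 FPKM. The 9 libraries were in 1 fit with group and replicate number (taken as the cell passage) as terms, and passages were compared by the moderated F-test of the replicate terms. Benjamini-Hochberg adjustment ran over all genes tested, and an adjusted p under 0.05 was called. The methods state that transfections were repeated in different passages, and that the replicate number marks the passage is inferred. Same-numbered libraries of different groups deviated together in all 9 pairs (r from 0.341 to 0.824, mean 0.565). The 18 differently numbered pairs had r of -0.643 to 0.38 (mean -0.261), which overlaps that range. Deviations were taken from the mean of each group, so agreement in same-numbered pairs forces the others to oppose on balance. The negative mean is thus not separate evidence. Libraries prepared or sequenced together under the same replicate number would also deviate together, so a passage and such a batch cannot be told apart. The number was kept as a block. Alternatives were a smaller pseudocount (0.1), rescaling to an equal FPKM sum (TPM), median ratio scaling, no replicate block, only the groups compared, no intensity trend, no filter, a minimum mean of 5 FPKM, a GC correction by loess (span 0.3) and each replicate left out in turn. Direction by passage and overlap of groups on the rescaled values were added after seeing the data. Counts were not analysed here, so the precision comes from the spread between libraries.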

Additional observations from a re-analysis of the deposited data

How the results depend on the processing

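The number of genes called in Short against EV, 5, was 2 without the replicate block, 3 without the intensity trend, with a minimum mean of 5 FPKM and with the GC correction, 1 without a filter, and 2 to 55 when each replicate was left out, the highest without replicate 3. In Long against EV the 1148 calls became 2 without the replicate block, 752 with only the groups compared, 646 without the trend, 1 without a filter, 1 with the GC correction and 2 to 1032 with a replicate left out. In Long against Short the 1 call became 0 without the replicate block, without the trend and without a filter, 3 with only the groups compared, and 0 to 10 with a replicate left out. Among passages the 5028 calls became 2861 without a filter and 28 to 4752 with a replicate left out. Of the 9 genes, the count called in Long against EV rose from 0 to 1 with TPM and with median ratio scaling (STAU2 in both) and with a minimum mean of 5 FPKM (DGCR8), and was 0 to 1 with a replicate left out. Among passages it went from 5 to 6 with TPM (ILF2 gained) and with a minimum mean of 5 FPKM (STAU1 gained), 4 without the trend and with the GC correction, 2 without a filter and 0 to 3 with a replicate left out. The number of pathway list genes called in Long against EV, 7, was 5 with TPM, 6 with median ratio scaling, 0 without the replicate block, 3 with only the groups compared (2 of them among the 7), 1 without the trend, 0 without a filter, 0 with the GC correction and 0 to 6 with a replicate left out, and their 29 calls among passages became 18 without a filter and 0 to 30 with a replicate left out. The cause of these changes was not tested.

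Of 324 recomputed group differences of the 9 genes, 300 kept their direction and their side of the threshold, 4 passed it and 20 changed sign, none of the last with an adjusted p under 0.05 (limma). In Short against EV PRKRA was 0.0581 with the GC correction and STRBP was -0.0668 with TPM and -0.0342 with median ratio scaling, and with a replicate left out PRKRA was -0.0682 to 0.0159, DICER1 -0.241 to 0.0083 and STRBP -0.0693 to 0.102. In Long against EV PRKRA was 0.068 with the GC correction and STRBP was -0.0532 with TPM and -0.0176 with median ratio scaling, and with a replicate left out DROSHA was -0.0478 to 0.0219 and STRBP -0.0796 to 0.0935. In Long against Short STAU2 was 0.0155 with the GC correction and PRKRA was 0.0036 with TPM, 0.0068 with median ratio scaling and 0.00996 with the GC correction, and with a replicate left out STAU1 was -0.0034 to 0.0601, PRKRA -0.0522 to 0.0493 and STRBP -0.0103 to 0.0335. The median over all genes moved by at most 0.077 with any scaling. Fragment counts are not in the table, so depth could not be turned into intervals.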
